A study of Mus musculus with 48 samples.

Results

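The 35 genes described here encode splicing factors of the SR and hnRNP families. They were taken by name from the 58913 genes in the deposited tables, as a list chosen with earlier results of these data known. They comprise 10 SR proteins (Srsf1, Srsf2, Srsf3, Srsf4, Srsf6, Srsf7, Srsf9, Srsf10, Srsf11 and Srsf12), 4 SR-related and Tra2 proteins (Tra2a, Tra2b, Srrm1 and Srrm2), 2 SR kinases (Srpk1 and Srpk2) and 19 hnRNP proteins. All 35 were found by symbol. A gene was tested in a tissue where its mean level was at least 1 FPKM (fragments scaled to transcript length and library size), which held for 35 genes in hypothalamus, 35 in pituitary and 34 in mammary gland, where Srsf12 fell below it.

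SR proteins carry RNA-binding domains and a tail rich in arginine and serine, and they bind exonic enhancers and recruit the spliceosome to nearby splice sites. The heterogeneous nuclear ribonucleoproteins (hnRNPs) coat nascent transcripts and often oppose SR proteins at the same exons. Kinases such as Srpk1 phosphorylate the arginine and serine tail, and in heat-shocked mammalian cells loss of that phosphate from Srsf10 is a known step in the general slowing of splicing.

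The animals were lactating ICR mice, an outbred stock, 10 weeks old and at day 13 of lactation. Control dams were kept at 25 °C and heat-stressed dams at 36 °C in a climate incubator, both at a relative humidity of 55 ± 5%, and tissue was taken directly after treatment, whose length the labels used here do not give. Hypothalamus, pituitary and the left inguinal mammary gland were each sequenced from 8 control and 8 heat libraries, 48 in all, which the labels call biological replicates. Values are 1 FPKM per gene and library, so the level of a gene is measured and its splicing, isoforms and protein are not.

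Total depth, as fragments recovered from the FPKM, was lowest in pituitary (10891501 to 17244280 per library), followed by mammary gland (11585891 to 17808033) and hypothalamus (16270621 to 22160135). That order does not hold for each gene: Tra2a held 165 to 683 fragments in mammary gland, 1530 to 2700 in pituitary and 1443 to 2646 in hypothalamus. For a 1 kb gene, 3 fragments stood for 0.322 to 0.600 FPKM in mammary gland, against 0.110 to 0.167 in pituitary. The summed FPKM of 5 neuronal markers was 243 to 324 in control hypothalamus, that of 10 endocrine markers was 4180 to 44200 in control pituitary, and that of 7 epithelial markers was 104000 to 199000 in control mammary gland. Hspa1b, the inducible heat shock protein used as the check of treatment, had a mean ± SD of 6.23 ± 2.93 FPKM in control and 413 ± 283 in heated mammary gland, 3.67 ± 1.54 and 286 ± 188 in pituitary, and 4.89 ± 1.66 and 43.7 ± 28.7 in hypothalamus (n = 8 each, all past the test below). In 5 mammary libraries (control 5 and heat 4, 5, 6 and 8) the summed FPKM of 11 lymphocyte markers was 74.9 to 130, against 3.97 to 5.71 in the other heat libraries and 3.89 to 5.36 in the other controls. In pituitary, the summed FPKM of 5 neurointermediate lobe markers was 2.91 in the lowest control and 18.8 in the lowest heat library, against medians of 114 and 151. Libraries numbered 1 to 3 also stood apart from those numbered 4 to 8 in hypothalamus and pituitary, a split seen in the data and named by no label, and its size for these genes is given with the SR-related proteins below.

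Heat changed few of these genes, and the pair that changed most was Tra2a and Tra2b in mammary gland. There Tra2a rose 1.85-fold and Tra2b 1.54-fold, Hnrnpc rose 1.21-fold, and Srsf3 fell to 0.746 of its control level. In pituitary Hnrnpd fell to 0.681 of its control level, and in hypothalamus no gene of the 35 passed the test. A gene passed where its Benjamini-Hochberg adjusted p was below 0.05 in limma's moderated test of log2(FPKM + 1), adjusted over all genes tested in that tissue.

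In mammary gland 4 of 34 genes passed, where 5.31% of the 12587 genes tested did; 3 were higher, as were 2.84% of all genes, and 1 was lower, as were 2.47%. In pituitary 1 of 35 passed, where 3.79% of 14095 genes did, and it was lower, as were 1.42% of all genes. In hypothalamus 0 of 35 passed, where 0.681% of 13957 genes passed; there 2 genes, Tra2a and Tra2b, were below an unadjusted p of 0.05, and limma-voom on the recovered fragments also called 0. The members' median log2 change was 0.03 in hypothalamus, -0.05 in pituitary and 0.04 in mammary gland, against 0.003, 0.005 and -0.01 over all genes tested. The median size of the change regardless of sign was 0.06, 0.10 and 0.10 for the members and 0.06, 0.11 and 0.15 for all genes tested. In these whole-tissue samples a change in the number of cells of a type cannot be told apart from a change in RNA per cell.

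**Figure D1:**
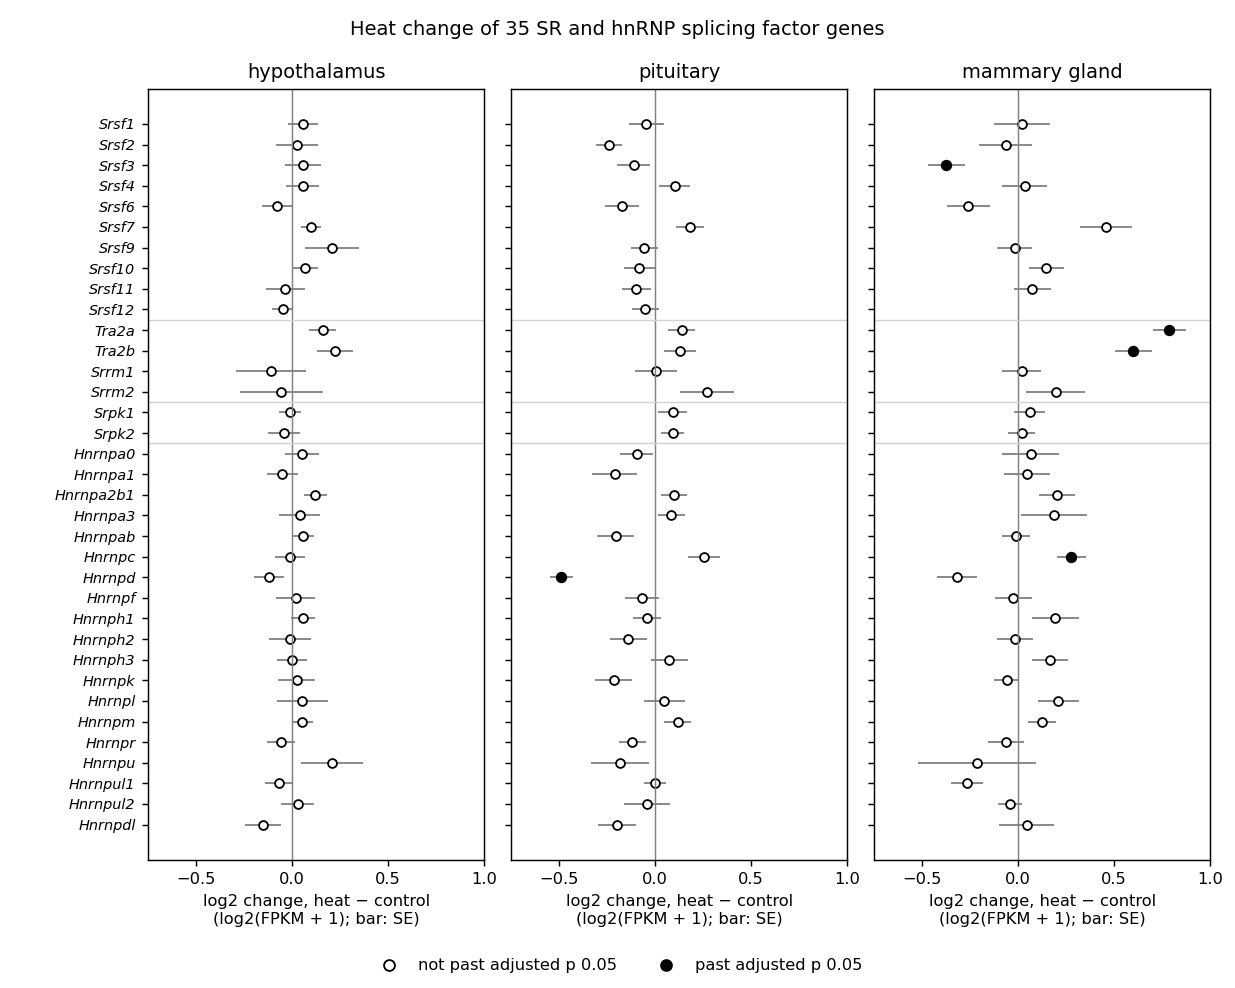
Change of each of the 35 genes with heat in each tissue, as the difference of mean log2(FPKM + 1) between 8 heat and 8 control libraries with its SE (bars); filled points passed an adjusted p of 0.05 and grey lines part the SR, SR-related and Tra2, kinase and hnRNP genes. Tra2a and Tra2b lie farthest to the right in mammary gland at 0.79 and 0.60, Hnrnpd lies farthest to the left in pituitary at -0.49, and no point is filled in hypothalamus.

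Tra2a and Tra2b are the mammalian homologues of the Drosophila sex-determination regulator Tra2 and bind GAA-rich exonic enhancers. Tra2b also controls its own level through an exon that carries premature stop codons. In control mammary gland Tra2a was at 4.03, 4.81 and 5.82 FPKM (lowest, median and highest of 8), and in heated gland at 7.83, 9.09 and 10.6. Every heated library lay above every control library. The log2 change was 0.79 ± 0.086 (SE, adjusted p = 0.000146, limma), and it was 0.68 among libraries 1 to 3 and 0.85 among libraries 4 to 8.

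Tra2b in mammary gland was at 7.41, 10.7 and 11.9 FPKM in controls and at 14.3, 15.0 and 18.4 in heated libraries. Again every heated library lay above every control. Of the Tra2b transcript, 25.5% is repeated in 4 other genes, all pseudogenes, so reads may be shared with them. The log2 change was 0.60 ± 0.098 (SE, adjusted p = 0.00216, limma), with 0.54 among libraries 1 to 3 and 0.63 among libraries 4 to 8. The lymphocyte-marker signal was high in 4 heated libraries and 1 control, and with that signal as a covariate the changes were 0.70 (adjusted p = 0.000394, limma) for Tra2a and 0.61 (adjusted p = 0.00936, limma) for Tra2b. Without those 5 libraries the change of Tra2a was 0.70 (adjusted p = 0.0198) and that of Tra2b was 0.60, of the same size but no longer past the threshold (adjusted p = 0.128, limma).

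In the other tissues the changes of both genes were smaller and did not pass. Hypothalamic Tra2a was at 9.43, 11.7 and 13.3 FPKM in controls and 11.2, 13.4 and 14.5 with heat, a log2 change of 0.16 (adjusted p = 0.516, limma). Pituitary Tra2a was at 10.2, 12.3 and 15.6 FPKM in controls and 12.5, 13.6 and 14.5 with heat, a log2 change of 0.14 (adjusted p = 0.327, limma). In both tissues the groups overlapped, although 7 and 8 of 8 heated libraries lay above the control median. The mammary change of Tra2a exceeded the hypothalamic one by 0.63 ± 0.10 (SE, adjusted p = 8.78e-05) and the pituitary one by 0.65 ± 0.10 (SE, adjusted p = 4.24e-05), both by limma contrasts over all 48 libraries.

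Tra2b in hypothalamus was at 8.34, 8.83 and 11.7 FPKM in controls and 8.96, 10.9 and 13.2 with heat, a log2 change of 0.22 ± 0.093 (SE, adjusted p = 0.46, limma). All 8 heated libraries lay above the control median and the groups overlapped. Within libraries 1 to 3 the controls spanned 10.8 to 11.7 and the heated libraries 12.7 to 13.2, and within libraries 4 to 8 the controls spanned 8.34 to 8.83 and the heated libraries 8.96 to 11.1. Each of these subsets was thus higher with heat without overlap, and a fit with a term for the 2 library sets gave the same change with an SE of 0.041 (adjusted p = 0.00792, limma); with replicate number as the block it was 0.0307. These settings were read after the values were seen.

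Tra2b in pituitary was at 9.55, 10.9 and 12.8 FPKM in controls and 10.5, 11.8 and 14.6 with heat, a log2 change of 0.13 (adjusted p = 0.475, limma). The groups overlapped over most of their range. The mammary change of Tra2b exceeded the pituitary one by 0.47 ± 0.13 (SE, adjusted p = 0.0301, limma), where 2.72% of 17789 genes passed that contrast. This call was lost when any of 7 libraries was left out (controls 7 and 8 and heat 4 of mammary gland, controls 1, 2 and 3 and heat 8 of pituitary), with an adjusted p of up to 0.0609. Its difference from the hypothalamic change was 0.38 ± 0.13 (SE, adjusted p = 0.122), which did not pass where 1.66% of genes did. In the F test of heat by tissue, Tra2a (adjusted p = 1.2e-05) and Tra2b (adjusted p = 0.0471, limma) were the 2 of 35 genes that passed, where 2.8% of all genes did. Tra2a passed it with each of the 48 libraries left out in turn, while Tra2b was lost in 31 of these fits, with an adjusted p of up to 0.103 (limma). Those were the fits without controls 1 to 4 or 8 or heat 4 to 8 of hypothalamus, controls 1, 2, 3, 5, 6 or 7 or heat 2 or 4 to 8 of pituitary, and controls 1, 5, 7 or 8 or heat 1, 2, 4, 5 or 6 of mammary gland. In the contrast of pituitary against hypothalamus 0 of 35 passed where 0.304% did.

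**Figure D2:**
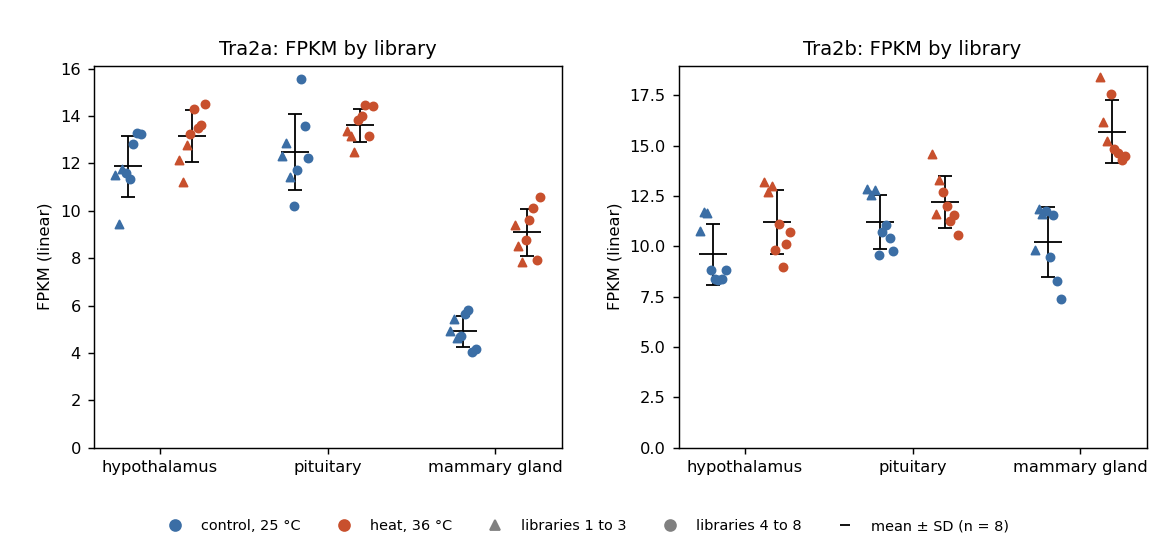
FPKM of Tra2a (left) and Tra2b (right) in each of the 48 libraries on linear axes from 0, blue for control at 25 °C and red for heat at 36 °C, triangles for libraries 1 to 3 and circles for 4 to 8, with mean ± SD of 8. In mammary gland the heated libraries lie at 7.83 to 10.6 for Tra2a and 14.3 to 18.4 for Tra2b, all above the controls, whereas the groups overlap in the other tissues.

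The bases before the start sites of these 2 genes are shown because the genes moved together with heat. The heat shock element, bound by heat shock factors, is built from inverted units of GAA. RefSeq start sites on GRCm38.p6 gave 32851 windows of 250 bases in all and 49 windows for 34 of the 35 members. The pair of units GAANNTTC or TTCNNGAA lay in 12.84% of all windows and in 5 of the 49 member windows, from 5 of the 34 members. A row of 3 units, GAANNTTCNNGAA or TTCNNGAANNTTC (both strands, each holding both of the shorter pairs), lay in 0.47% of all windows, and among the members in those of Tra2b and Hnrnpa2b1. Tra2b has its match 207 to 195 bases before the start and Tra2a has none in this window; a match is a string of letters and was not tested as a site. The sequences run 5′ to 3′ on the minus strand, from chr16:22266006-22266255 for Tra2b and chr6:49264053-49264302 for Tra2a, with the 3-unit match in capitals.
Tra2b: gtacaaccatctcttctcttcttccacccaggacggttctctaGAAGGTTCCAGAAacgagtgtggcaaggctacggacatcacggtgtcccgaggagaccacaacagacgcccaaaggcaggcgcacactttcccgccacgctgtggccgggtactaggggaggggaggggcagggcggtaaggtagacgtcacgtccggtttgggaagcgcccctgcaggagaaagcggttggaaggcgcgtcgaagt
Tra2a: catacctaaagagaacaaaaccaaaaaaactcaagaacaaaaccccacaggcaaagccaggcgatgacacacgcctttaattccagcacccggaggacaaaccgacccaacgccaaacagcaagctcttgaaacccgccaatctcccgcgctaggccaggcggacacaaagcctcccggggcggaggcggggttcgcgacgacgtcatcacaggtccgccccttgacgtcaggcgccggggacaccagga
The second match lies 38 to 26 bases before a start of Hnrnpa2b1, and a 29-base stretch around it, chr6:51469863-51469891 on the minus strand, is shown for comparison.
Hnrnpa2b1: agtgggggGAAGGTTCTAGAAaagcggcg

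Hnrnpa2b1 encodes an abundant hnRNP that binds UAG-containing RNA. Its log2 changes with heat were 0.12 in hypothalamus (adjusted p = 0.646), 0.10 in pituitary (adjusted p = 0.502) and 0.20 ± 0.092 in mammary gland (SE, adjusted p = 0.215, limma). In hypothalamus its controls were at 56.4, 59.6 and 62.9 FPKM and its heated libraries at 50.4, 64.7 and 70.0. There 6 of 8 heated libraries lay above the highest control and 1 below the lowest. Among libraries 1 to 3 the log2 changes were -0.02, -0.10 and 0.14 in hypothalamus, pituitary and mammary gland. Among libraries 4 to 8 they were 0.20, 0.20 and 0.23. None of the changes over both library sets together passed the test.

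Srrm1 and Srrm2 are SR-related proteins without a classical RNA-binding domain, and Srrm2 is a scaffold of nuclear speckles, where splicing factors are stored. Neither passed in any tissue, although with a term for the library sets pituitary Srrm2 had a log2 change of 0.27 ± 0.082 (SE, adjusted p = 0.0431, limma; 0.0612 with the replicate block). In hypothalamus the levels of both genes differed more between the library sets than between control and heat. Hypothalamic Srrm2 was at 22.6 to 26.0 FPKM in controls 1 to 3 and 42.3 to 48.4 in controls 4 to 8, and at 21.0 to 26.5 in heated libraries 1 to 3 and 38.8 to 45.8 in heated libraries 4 to 8. The 2 sets were far apart, by a ratio of 1.85, and within each set control and heated libraries overlapped.

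Srrm1 in hypothalamus had a ratio of 1.72 between the sets, with controls at 13.4 to 15.6 and 24.7 to 26.5 FPKM and heated libraries at 12.2 to 14.7 and 22.2 to 23.0. The heated libraries 4 to 8 thus lay below the controls 4 to 8, while those of 1 to 3 overlapped. The sets of both genes overlapped in pituitary and in mammary gland. Over all members, the 2 library sets did not overlap for 11 of 35 genes in hypothalamus, 3 of 35 in pituitary and 1 of 34 in mammary gland, against 24.5%, 15.4% and 1.04% of all genes tested. The 11 hypothalamic genes were Srsf2, Srsf4, Srsf9, Srrm1, Srrm2 and Hnrnpl, higher in libraries 4 to 8, and Srsf3, Hnrnpc, Hnrnpf, Hnrnph2 and Hnrnpk, lower there. Since each set holds control and heated libraries of every tissue, the sets and the treatment can be told apart, and the values within each set stand beside each call.

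**Figure D3:**
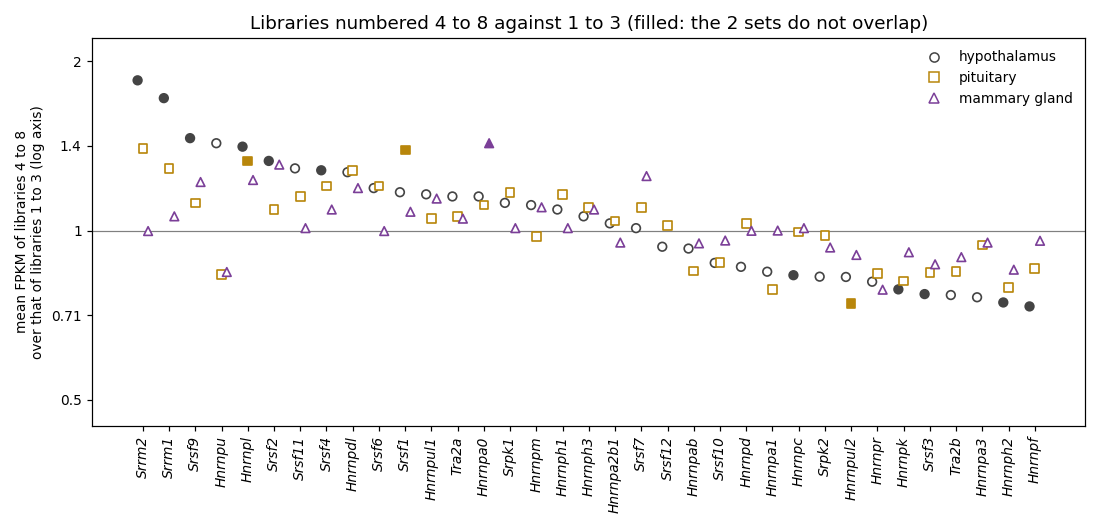
Ratio of the mean FPKM of libraries numbered 4 to 8 to that of libraries numbered 1 to 3, control and heat together, for each gene (log axis) in hypothalamus (circles), pituitary (squares) and mammary gland (triangles), with filled symbols where the 2 sets do not overlap. Srrm2 and Srrm1 lead in hypothalamus at 1.85 and 1.72, and 11 hypothalamic, 3 pituitary and 1 mammary symbols are filled; Srsf12 is not drawn for mammary gland.

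Among the SR proteins, 0 of 10 passed in hypothalamus, 0 of 10 in pituitary and 1 of 9 in mammary gland. Of all genes tested, 0.681%, 3.79% and 5.31% passed in these tissues. Srsf5, an SR protein outside these 10, fell in pituitary and is given with the other splicing genes below. The mammary gene was Srsf3, the smallest SR protein, which acts in splicing, mRNA export and polyadenylation. Its mammary level was 16.5, 21.96 and 25.7 FPKM in controls and 13.5, 15.5 and 17.5 with heat. The groups overlapped at their edges, with 5 of 8 heated libraries below the lowest control and all 8 below the control median. The log2 change was -0.37 ± 0.097 (SE, adjusted p = 0.0343, limma), with -0.53 among libraries 1 to 3 and -0.29 among libraries 4 to 8.

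This fall of Srsf3 was near the threshold. The adjusted p rose to as much as 0.0699 when any of 7 libraries was left out (controls 1 to 5 and heat 6 and 8), was 0.0688 with the lymphocyte-marker covariate (log2 change -0.40) and 0.344 without the 5 libraries rich in those markers (log2 change -0.36, limma). The log2 change was 0.06 in hypothalamus and -0.11 in pituitary (adjusted p = 0.565), and the difference between the mammary and hypothalamic changes was -0.43 ± 0.13 (SE, adjusted p = 0.0744, limma). Of the Srsf3 transcript, 49.5% is repeated at 95% identity or more in 5 other genes, 4 of them pseudogenes, so reads may be shared with them.

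Srsf7, a close relative of Srsf3 that also promotes mRNA export, had a change of opposite sign in mammary gland that did not pass. It was at 16.8, 19.0 and 29.5 FPKM in controls and 19.3, 26.8 and 37.0 with heat, a log2 change of 0.46 ± 0.14 (SE, adjusted p = 0.0596, limma). All 8 heated libraries lay above the control median and 2 above the highest control. With a term for the library sets the adjusted p was 0.0302, so this gene lies at the edge of the threshold.

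Srsf2, the speckle protein long known as SC35, was lower in heated pituitary without passing. It was at 33.2, 34.5 and 39.2 FPKM in controls and 27.1, 27.8 and 35.9 with heat, a log2 change of -0.24 ± 0.066 (SE, adjusted p = 0.0529, limma). In pituitary 7 of 8 heated libraries lay below the lowest control. The adjusted p was 0.0134 with a term for the library sets and 0.0446 with replicate number as the block. Exons of Srsf2 overlap those of Mettl23 and Mfsd11 on the opposite strand over 25.3% of their bases, and whether the counting used strand is not given in the sources used here.

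Srsf6 in mammary gland was at 30.4, 34.3 and 46.1 FPKM in controls and 20.5, 30.5 and 33.7 with heat (adjusted p = 0.186, limma). All 8 heated libraries lay below the control median. Srsf9, an SR protein found in stress-induced nuclear bodies of human cells, had a log2 difference of 0.21 in hypothalamus that did not pass, and the term for the library sets brought its adjusted p to 0.0456, against 0.0748 with the replicate block (limma). Srsf10, the heat-sensitive repressor, was not past the threshold in any tissue, with controls at 8.63 ± 0.82, 10.3 ± 1.12 and 11.4 ± 1.75 FPKM in hypothalamus, pituitary and mammary gland (mean ± SD, n = 8).

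Srpk1 and Srpk2 phosphorylate SR proteins in the cytoplasm and so allow their import into the nucleus. Neither changed past the threshold in any tissue. Their log2 changes lay between -0.05 and 0.09, and the smallest adjusted p was 0.481 (limma). Srpk2 in mammary gland spanned 1.89 to 2.44 FPKM in controls and 1.87 to 2.71 with heat, so the groups covered nearly the same range.

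Among the 19 hnRNP genes, 0 passed in hypothalamus, 1 in pituitary and 1 in mammary gland. Of all genes tested, 0.681%, 3.79% and 5.31% passed in these tissues. With a term for the library sets, others passed too (limma), where the share of all genes that passed is not given here. In pituitary these were Hnrnpk (log2 change -0.22, adjusted p = 0.0272), Hnrnpdl (-0.20, 0.0333) and Hnrnpc (0.26, 0.0471). In mammary gland it was Hnrnpul1 (-0.27, 0.0351). With the replicate block the adjusted p was 0.0394 for Hnrnpk, 0.0736 for Hnrnpdl, 0.0611 for Hnrnpc and 0.0674 for Hnrnpul1 (limma). Hnrnpd, also known as AUF1, binds AU-rich elements of short-lived mRNAs. In pituitary it was at 10.4, 11.2 and 12.5 FPKM in controls and 6.81, 7.41 and 9.18 with heat. All 8 heated libraries lay below all 8 controls. The log2 change was -0.49 ± 0.060 (SE, adjusted p = 0.000262, limma), with -0.60 among libraries 1 to 3 and -0.44 among libraries 4 to 8.

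The fall of Hnrnpd in pituitary passed with each of the 16 libraries left out in turn, and it was -0.46 (adjusted p = 0.00124, limma) without control 1 and heat 3. In mammary gland Hnrnpd was at 6.02, 7.95 and 9.26 FPKM in controls and 5.00, 5.97 and 7.47 with heat, a log2 change of -0.32 ± 0.10 (SE, adjusted p = 0.0787, and 0.0381 with the replicate block, limma). In hypothalamus it was at 16.2, 17.0 and 21.3 FPKM in controls and 13.95, 16.5 and 20.1 with heat, a log2 change of -0.12 (adjusted p = 0.838, limma). These groups overlapped, although 8 of 8 mammary and 6 of 8 hypothalamic heated libraries lay below their control medians. The pituitary change differed from the hypothalamic one by -0.36 ± 0.11 (SE, adjusted p = 0.232) and the mammary from the pituitary one by 0.17 ± 0.11 (SE, adjusted p = 0.533, limma), so a difference between tissues was not shown for this gene.

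Hnrnpc binds uridine tracts and packages nascent transcripts. In mammary gland it was at 23.5, 27.1 and 28.1 FPKM in controls and 27.5, 31.2 and 41.9 with heat. Of 8 heated libraries 7 lay above the highest control. The log2 change was 0.28 ± 0.075 (SE, adjusted p = 0.0417, limma), with 0.17 among libraries 1 to 3 and 0.33 among libraries 4 to 8. With the replicate block the adjusted p was 0.0596.

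This rise of Hnrnpc was the least stable of the 4 mammary calls to leaving out a library: 13 of the 16 left-out libraries (all 8 controls and heat 1, 4, 5, 6 and 8) ended the call, with an adjusted p of at most 0.0715. It was 0.148 with the lymphocyte-marker covariate (log2 change 0.23) and 0.429 without the 5 libraries rich in those markers (log2 change 0.20, limma). Pituitary Hnrnpc was at 26.6, 31.6 and 33.7 FPKM in controls and 29.1, 37.9 and 43.9 with heat, a log2 change of 0.26 ± 0.083 (SE, adjusted p = 0.107, limma). There 6 of 8 heated libraries lay above the highest control. A single pseudogene repeats 31.8% of the Hnrnpc transcript.

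**Figure D4:**
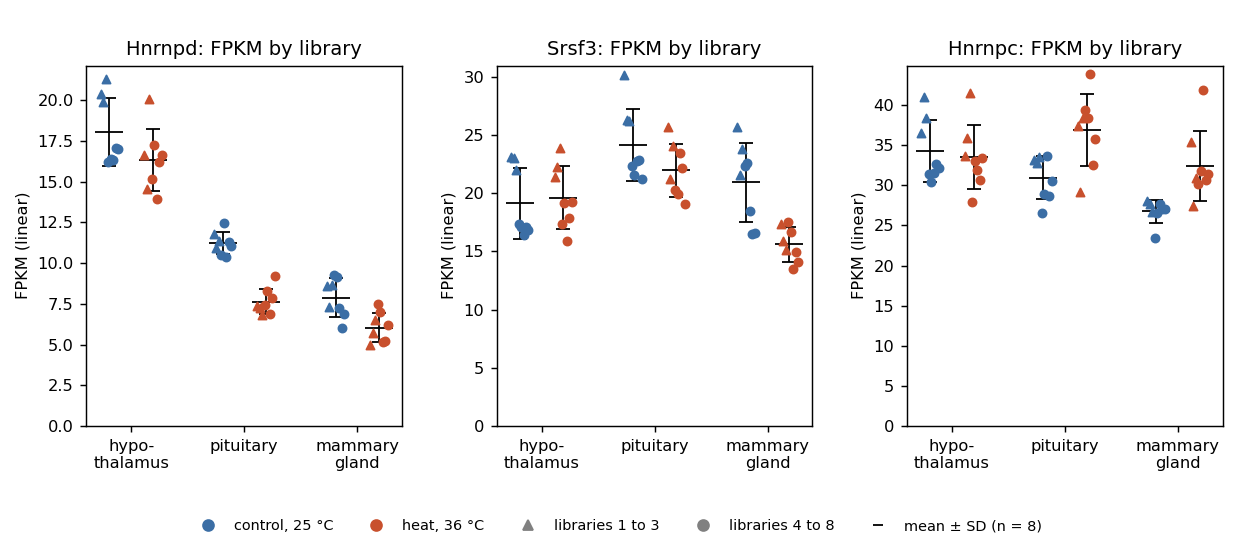
FPKM of Hnrnpd, Srsf3 and Hnrnpc in each of the 48 libraries on linear axes from 0, with the colours, symbols and mean ± SD of 8 as for the Tra2 genes. Pituitary Hnrnpd is the panel in which the groups part, 6.81 to 9.18 with heat against 10.4 to 12.5 in controls, while the mammary groups of Srsf3 and Hnrnpc touch or overlap.

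The most abundant members were hnRNPs and did not pass. Hnrnpa1, which represses exons and shuttles between nucleus and cytoplasm, led in hypothalamus at 92.5, 97.4 and 116.8 FPKM in controls and 85.1, 93.3 and 120.4 with heat. Hnrnpa0, its intronless relative, followed there at 73.4, 78.6 and 95.9 in controls and 72.7, 79.4 and 108.5 with heat. For both genes the ranges overlapped, and 4 of 8 heated libraries of Hnrnpa1 lay below the lowest control.

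In pituitary the same genes led, Hnrnpa1 at 80.7, 93.7 and 113.9 FPKM in controls and 62.1, 77.0 and 107.5 with heat, and Hnrnpa0 at 74.1, 82.6 and 96.8 in controls and 60.7, 76.5 and 97.2 with heat. Their log2 changes were -0.21 (adjusted p = 0.387) and -0.10 (adjusted p = 0.624, limma). Of the Hnrnpa1 transcript 50.4% is repeated in 11 other genes, 10 of them pseudogenes.

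In mammary gland Hnrnpab, an RNA-binding and DNA-binding relative of Hnrnpd, led at 90.6, 98.8 and 116.6 FPKM in controls and 84.1, 99.1 and 117.8 with heat, and Hnrnpa2b1 followed at 54.4, 71.1 and 84.4 in controls and 67.9, 78.7 and 85.8 with heat. The log2 change of Hnrnpab was -0.01 (adjusted p = 0.954, limma). Exons of Hnrnpab overlap Phykpl on the opposite strand over 29.1% of their bases. Levels were also low for Srsf1, at 2.11, 2.13 and 1.61 FPKM in control hypothalamus, pituitary and mammary gland, and Hnrnpu, at 1.43, 1.42 and 2.52 (means, n = 8). Hnrnpu was uneven, with a coefficient of variation of 89.6% over the mammary controls, where control 3 alone reached 7.66 FPKM, against 2.91% for Hnrnph1 over the hypothalamic controls.

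Summed over the 35 genes, the level was 869.7 ± 10.4 FPKM in control and 870.3 ± 45.3 in heated hypothalamus. In pituitary it was 962.8 ± 15.1 and 926.5 ± 41.3, and in mammary gland 835.9 ± 62.1 and 857.9 ± 30.8 (mean ± SD, n = 8). Heated and control sums overlapped in each tissue, and no test was made on a sum over the list.

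At 25 °C the tissues differed in these genes far more often than heat changed them. Against hypothalamus, 18 of 35 genes differed in pituitary, where 72.2% of the 17675 genes tested did; 12 were higher and 6 lower, against 32.8% and 39.4% of all genes. Against hypothalamus, 26 of 35 differed in mammary gland, where 82.6% did; 9 were higher and 17 lower, against 36.3% and 46.3%. Against pituitary, 24 of 35 differed in mammary gland, where 80.0% did; 4 were higher and 20 lower, against 35.1% and 44.9%. The members' shares of 51.4%, 74.3% and 68.6% were thus below those of all genes, and the 3 comparisons share control libraries. All genes here include those with a mean of at least 1 FPKM in only 1 of the 3 tissues. Of the members, 35, 35 and 34 reached that level in hypothalamus, pituitary and mammary gland over control and heat libraries, so the shares come from unlike sets.

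The split of directions depends on the scaling. With quantile normalization the pituitary genes were 23 higher and 3 lower than in hypothalamus. The median difference of all genes between mammary gland and hypothalamus was -0.14 in the values scaled by median ratio and moved up by 0.15 with quantile normalization, while that of the members was -0.22 before it.

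Hnrnpf, which binds runs of G, had the largest upward difference between mammary gland and hypothalamus among the members, at 10.2 ± 1.77 FPKM in hypothalamus, 18.6 ± 2.11 in pituitary and 45.2 ± 5.88 in mammary gland (mean ± SD, n = 8), although 52.0% of its transcript is repeated in 6 pseudogenes. Hnrnpab stood in the same order, at 32.95 ± 1.01, 50.8 ± 5.48 and 102.0 ± 8.68. In each of these genes mammary gland exceeded hypothalamus in the log2 scale, by 2.05 for Hnrnpf (adjusted p = 1.98e-16) and 1.60 for Hnrnpab (adjusted p = 6.76e-18, limma). Exons of Hnrnpf overlap 4933440N22Rik and Gm43863 on the opposite strand over 26.5% of their bases. Srsf6 was highest in pituitary, at 47.8 ± 4.65 FPKM against 21.4 ± 1.39 in hypothalamus and 36.1 ± 5.76 in mammary gland.

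Lower in mammary gland were Srpk2, at 9.68 ± 1.46, 6.11 ± 0.41 and 2.24 ± 0.19 FPKM in hypothalamus, pituitary and mammary gland, and Tra2a, at 11.9 ± 1.27, 12.5 ± 1.60 and 4.92 ± 0.66 (mean ± SD, n = 8). Mammary Tra2a was thus below the other tissues by 1.12 and 1.17 on the log2 scale (adjusted p = 1.67e-12 and 9.25e-13, limma), and the heated mammary mean of 9.09 FPKM was below the control means of the other tissues. Tra2b was at like levels, 9.607 ± 1.502, 11.2 ± 1.34 and 10.2 ± 1.74 FPKM in hypothalamus, pituitary and mammary gland, and its tissue differences did not pass (smallest adjusted p = 0.0767, limma).

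Srsf12, a divergent SR protein that opposes other SR proteins in splicing extracts, was the 1 member not tested in mammary gland. It was at 6.73, 7.32 and 8.49 FPKM in control hypothalamus and 1.22, 1.44 and 1.64 in control pituitary. Mammary controls held 0 to 3 fragments and heated mammary libraries 0 to 6. A count of 3 fragments in that gene stands for 0.102 to 0.191 FPKM in mammary gland, so the hypothalamic mean was at least 39.2-fold higher than the highest of these per-library limits, which cover counting error only.

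**Figure D5:**
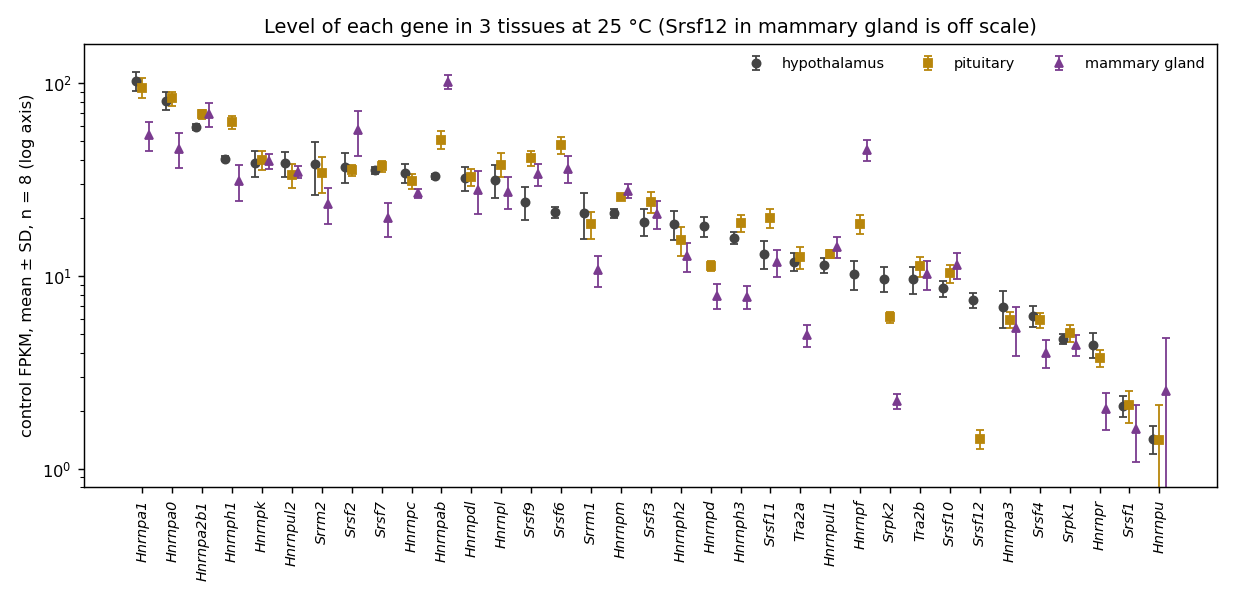
Mean FPKM ± SD of the 8 control libraries at 25 °C for each gene (log axis) in hypothalamus (circles), pituitary (squares) and mammary gland (triangles), ordered by the hypothalamic mean. Hnrnpab and Hnrnpf stand above the other tissues in mammary gland at 102.0 and 45.2, Srpk2 and Tra2a below them at 2.24 and 4.92; the lower bars of Hnrnpu reach under the axis and Srsf12 in mammary gland is off scale.

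The annotated transcripts of these genes hold a trait that many but not all of them share, and that the choice of members did not use. In GENCODE M21, 23 of the 35 genes (65.7%) have a transcript marked for nonsense-mediated decay, against 26.9% of 13571 expressed coding genes, and 26 (74.3%) have one with a retained intron, against 56.0%. The median gene has 9 annotated transcripts, against 5, and the shares above were not matched for the number of transcripts. Tra2a has 1 transcript marked for decay, Tra2b 3, Srsf3 2, Hnrnpd 4 and Hnrnpc 0, so FPKM of these genes may hold productive and unproductive RNA together.

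Other splicing genes were read from lists outside the 35, against 0.681%, 3.79% and 5.31% of all genes that passed in hypothalamus, pituitary and mammary gland. Of 19 SR-type genes tested, 0 passed in hypothalamus, 2 fell in pituitary and 1 rose in mammary gland. Pituitary Srsf5, an SR protein of the same family, fell from 99.0 ± 12.5 to 63.5 ± 12.5 FPKM (log2 change -0.63, adjusted p = 0.00357, limma), and Luc7l2, a protein of the U1 particle, fell from 18.7 ± 0.83 to 14.8 ± 1.33 (log2 change -0.31, adjusted p = 0.00932). In mammary gland Rsrc2, a protein with an arginine and serine domain, rose from 6.30 ± 0.88 to 8.18 ± 0.83 FPKM (adjusted p = 0.0234, limma).

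Kinases and phosphatases of SR proteins gave 1 rise in 14 in hypothalamus, 0 in 13 in pituitary (3 below an unadjusted p of 0.05) and 1 rise in 13 in mammary gland. Ppp1cc, a catalytic subunit of protein phosphatase 1, the phosphatase that acts on Srsf10 in heat-shocked cells, rose from 19.3 ± 1.04 to 23.0 ± 1.38 FPKM in hypothalamus (log2 change 0.26, adjusted p = 0.0174, limma). Clk4, a nuclear kinase of SR proteins, rose from 8.96 ± 2.23 to 12.4 ± 1.86 FPKM in mammary gland (adjusted p = 0.0487, limma).

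Of the hnRNP-type genes under other names, 1 of 23 fell and 0 rose in hypothalamus. In mammary gland 3 of 21 rose and 1 fell. In pituitary 3 of 22 fell and 0 rose, where 4 were higher at an unadjusted p below 0.05 (limma). Cirbp, the cold-inducible RNA-binding protein, fell from 35.7 ± 4.94 to 25.2 ± 2.602 FPKM in hypothalamus and from 49.7 ± 5.60 to 24.2 ± 6.19 in pituitary (adjusted p = 0.0168 and 0.000247, limma). Rbmx, the X-linked hnRNP G, fell in pituitary by 0.27 on the log2 scale (adjusted p = 0.0414). In mammary gland Safb, a nuclear matrix protein found in stress-induced nuclear bodies of human cells, rose from 13.7 ± 1.48 to 18.4 ± 1.33 FPKM (adjusted p = 0.00383) and Pcbp2, a poly-C binding protein, rose from 19.5 ± 2.96 to 25.9 ± 2.50 (adjusted p = 0.0142, limma). The other riser there was Hnrnpll, named after its value was seen, at a log2 change of 0.42.

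Spliceosome core genes passed in 0 of 57 in hypothalamus and 0 of 57 in pituitary, where 4 and 3 were below an unadjusted p of 0.05, and 2 of 57 rose in mammary gland. These were Prpf3, a component of the U4/U6 particle, from 3.04 ± 0.46 to 4.15 ± 0.64 FPKM, and Prpf38b, from 15.3 ± 2.26 to 18.9 ± 1.20 (adjusted p = 0.0299 and 0.0445, limma). Of the tissue-restricted regulators, 0 of 27 passed in hypothalamus, 1 of 23 in pituitary and 2 of 15 in mammary gland. Pituitary Tia1, which binds U-rich introns and forms stress granules, fell by 0.35 on the log2 scale (adjusted p = 0.0119). Mammary Qk, the STAR-family regulator quaking, rose by 0.27 and Rbm38, an RNA-binding target of p53, by 1.25 from 2.38 ± 1.68 to 7.89 ± 5.60 FPKM (adjusted p = 0.0305 and 0.0494, limma). Among these list genes, exons shared with other annotated genes make up 36.2% of Pcbp2, 18.9% of Luc7l2 and 13.4% of Rbm38, and their levels are uncertain because the counting may not have used strand.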

How the data were processed

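Total RNA of the 3 tissues was sequenced, and the deposited tables hold FPKM for each gene. Per the submitters' processing notes, the tools were HISAT2 2.0.5, featureCounts 1.5.0-p3 and DESeq2 1.16.1, and the build mm9; handling of strand and of reads with several positions is not given in the sources used here. GENCODE M21 lengths (GRCm38) account for the FPKM, so no coordinates are taken from the files. With them, 94.71 to 96.95% of values below 50 fragments were whole within 0.02 fragments, which gave depth. For a 1 kb gene, 3 fragments stand for 0.322 to 0.600 FPKM in mammary gland, 0.110 to 0.167 in pituitary and 0.105 to 0.143 in hypothalamus; these limits cover counting error only. A symbol was found for 53274 of 58913 genes.

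Levels are given as deposited. The authors had scaled them between libraries, since over 13815 genes every library had the same median ratio, 1.0123, to the geometric mean of the 48. For each fit, libraries were divided by their median ratio in that fit (0.9758 to 1.0266 within tissues), genes of mean FPKM of at least 1 kept, and log2(FPKM + 1) fitted with limma 3.58.1 in R 4.3.3 (empirical Bayes with trend, 2-sided, Benjamini-Hochberg over all genes, threshold 0.05). The fits were 8 heat against 8 control libraries per tissue, heat by tissue over 48 libraries, and tissues over the 24 controls; a fold change on this scale understates that of low genes. The code was tested on simulated data. Python 3.11.15, numpy 2.4.6, pandas 2.3.3 and matplotlib 3.10.9 did the rest.

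Members and lists (149 pathway genes, 148 matched) were chosen with earlier results of these data known. Named in full were members past the threshold and the 2 most abundant per tissue; from each list, at most 3 genes past the threshold with the smallest adjusted p, of which 1 is not reported here. Alternatives were the deposited scale, quantile normalization, a pseudocount of 0.1, no filter or one of 5, limma-voom on recovered fragments, all 48 libraries in 1 fit, marker covariates, a term for libraries 1 to 3 and 4 to 8 or each alone, each library left out, and the replicate number as a block. Among controls the deviations of same-numbered libraries correlated above 0.1 in all 8 pairs of each of the 3 tissue pairs (lowest 0.204). Among heat libraries the lowest was 0.052, between hypothalamus and pituitary. Same-numbered control and heat libraries correlated too (median 0.384 in hypothalamus and 0.276 in pituitary). Libraries of the same number also share a library set, so a shared animal cannot be told apart from that split. Repeated transcript was found by alignment at 95% identity over at least 100 bases.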

Additional observations from a re-analysis of the deposited data

Results flagged for a closer look

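In 46 groups of 8 libraries examined for a library far from the others, 1 was found, where chance gives about 1 in 20. These were not all the groups of the members, so the count does not cover the whole list. Mammary Hnrnpc in control 4 was 23.5 FPKM, and its gap to the nearest control was 0.66 of the group's range, above Dixon's critical value for 8 samples. Without it the log2 change of Hnrnpc was 0.25 (adjusted p = 0.0712, limma). Single mammary controls also stood high for 2 genes that were not flagged. Whether their groups were among the 46 examined is not given here, so the lack of a flag does not mean that they passed the rule. Hnrnpu was at 7.66 FPKM in control 3 and at most 3.80 in controls 4 to 8. The highest control of Srsf7 was 29.5 FPKM against a control median of 19.0, and its heat change was not refitted here for that reason.

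The heat changes of 2 genes differed between tissues by the test of the difference itself. That of Tra2a was larger in mammary gland than in hypothalamus by 0.63 and than in pituitary by 0.65 on the log2 scale, and that of Tra2b was larger in mammary gland than in pituitary by 0.47.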

How the results depend on the processing

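The main counts were 0 in hypothalamus, 1 in pituitary, 4 in mammary gland and 2 for heat by tissue. Libraries 1 to 3 alone, 3 against 3, gave 0 in pituitary and mammary gland; libraries 4 to 8 alone gave 2, 3 and 2 in hypothalamus, pituitary and mammary gland. A term for these sets gave 2, 6 and 6 in the tissues and 4 for heat by tissue. The share of all genes that passed under each alternative is not given here. The counts under the alternatives are therefore not read as a result about the members. Pituitary gave 2 with the lobe-marker covariate and with quantile normalization. Mammary gland gave 8 with all 48 libraries in 1 fit, 2 with the lymphocyte covariate, 2 without a filter and 1 without the 5 lymphocyte-rich libraries. Heat by tissue gave 1 with a filter of 5, without a filter, and with a pseudocount of 0.1. Leaving out each library gave 0 to 0, 1 to 2, 2 to 5 and 1 to 2; the tissue counts ranged from 15 to 20, 24 to 27 and 22 to 25. Mammary gland gave 2 without control 1, 3 or 4 or heat 6 or 8, and pituitary 2 without heat 2 or 8. The cause was not tested.

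Heat and control libraries of the same number are paired by no label; their deviations correlated above 0.1 in 7, 7 and 3 of 8 pairs. With the number as a replicate block the counts were 1, 3 and 5, 3 for heat by tissue, and 21, 27 and 28 for the tissues. In none of the alternatives run did a called member change direction. Depth limits Srsf12 in mammary gland.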
